A study of Homo sapiens with 17 samples.

Results

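The transcripts described here are 10 genes of the NRF2 antioxidant response and of ferroptosis control, out of 60662 genes in the count table: NFE2L2, HMOX1, NQO1, GCLC, GCLM, TXNRD1, SRXN1, GPX4, SAT1 and FTH1. They were chosen by name as antioxidant, glutathione, iron and polyamine genes, with earlier results of these data known. Their read counts were followed across 6 groups of Ishikawa cells, a human endometrial epithelial adenocarcinoma line. RNA-seq was carried out on 17 libraries after 24 h of culture. The groups were control medium (3 libraries), Nap alone (2), vehicle control, labelled Nap and EtOH with 70% ethanol (3), P4, labelled Nap and progesterone (3), and 2 sets of 3 libraries from cultures given PSAT1, the serine synthesis enzyme phosphoserine aminotransferase, one of which also received P4.

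Several limits come from the labels. "Nap" is explained in none of the sources used here. The P4 libraries are not labelled with ethanol, so P4 and the presence of ethanol cannot be told apart in P4 against vehicle control. The P4 dose of these libraries is given as 10 μg/ml in the study's legends, while the protocol in the labels lists 0.1 and 1.0 mg/ml. The ethanol of the vehicle control is 70% in the protocol of the labels, while a legend of the study gives its vehicle control as 10% ethanol. For the 6 PSAT1 libraries, the titles and the column names of the table disagree on which set received P4. Both name the same sets of 3, which are called by their column here: the column PSAT1 set is titled PSAT1 with P4, and the column PSAT1_P4 set is titled PSAT1 alone. No treatment beyond PSAT1 is assigned to either. Replicates are called biological replicates, all from 1 cell line.

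NRF2, the product of NFE2L2, is a transcription factor that KEAP1 holds at low abundance and that oxidants and electrophiles release. With a small MAF protein it binds antioxidant response elements and drives genes for glutathione synthesis, thioredoxin recycling, quinone detoxification and haem breakdown. Ferroptosis is an iron-dependent death by lipid peroxidation: GPX4 reduces lipid peroxides with glutathione, ferritin stores iron, and SAT1, which acetylates polyamines, is known to sensitise cells to it.

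Sequences of this biology are shown where the reference held them. The antioxidant response element core, TGACNNNGC, was searched on both strands of RefSeq promoters (GRCh38.p14, 250 bases before to 50 bases after each start). It was present in 13.3% of 35116 promoters and in 3 of the 12 promoters listed for these genes. A promoter was listed for 8 of the 10 genes, and the core was found in promoters of 2 of them, GCLM with 1 match and TXNRD1 with 3. A match is a run of letters and not a shown binding site. Bases further from a start were not searched, nor were HMOX1 and FTH1, which had no promoter listed. The absence of a match therefore does not show that a gene lacks the core. Capitals mark the core, written on the strand that carries it.
GCLM (chr1:93909445-93909474, opposite strand to the gene): ctggaagacaaTGACTAAGCagaaatcgta
TXNRD1, first promoter (chr12:104215670-104215699, strand of the gene): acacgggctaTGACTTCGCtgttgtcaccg
TXNRD1, first promoter (chr12:104215761-104215790, opposite strand): cctgtgggaacTGACGGAGCcgaaggacgc
TXNRD1, second promoter (chr12:104286920-104286949, opposite strand): cagagtcagaaTGACAAAGCagaaatccac

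Both selenoproteins among the genes carry an in-frame TGA that is read as selenocysteine, the catalytic residue. It lies at codon 73 of 197 in GPX4 (transcript ENST00000354171.12) and at codon 550 of 551 in TXNRD1 (ENST00000526691.5). Capitals mark it in the 30-base windows from the GENCODE 29 transcripts (GRCh38). The TXNRD1 window runs past the last codon.
GPX4 (chr19:1105391-1105420, plus strand): gtggcctcccagTGAggcaagaccgaagta
TXNRD1 (chr12:104348401-104348430, plus strand): caggctggctgcTGAggttaagccccagtg

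The ferritin heavy and light chain mRNAs carry in the 5′ UTR the CAGTG loop of the iron-responsive element, which iron regulatory proteins bind to hold back ferritin translation. Capitals mark the loop letters. This control acts on translation, which RNA-seq does not measure.
FTH1 (chr11:61967573-61967602, minus strand): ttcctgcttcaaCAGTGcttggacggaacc
FTL (chr19:48965335-48965364, plus strand): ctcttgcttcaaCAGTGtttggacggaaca

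Library totals ran from 4999521 reads (vehicle control replicate 1) to 19704493, with 12964362 as the median, and 9 of the 10 genes had enough reads to be tested. All 6 epithelial markers examined (EPCAM, KRT8, KRT18, KRT19, CDH1, MUC1) reached a median of at least 1 CPM over the libraries, MUC1 at a median of only 1.72 CPM. Among 6 fibroblast markers COL1A1, COL1A2 and COL3A1 also reached it and DCN, LUM and PDGFRB did not, nor did any of 6 immune and endothelial markers. Reads below that level were present, up to 27 reads of LUM and 24 of VWF in a library. The summed fibroblast markers ranged from 343 to 358 CPM in vehicle control and from 127 to 179 CPM in P4, and the summed epithelial markers from 1171 to 1173 and from 929 to 1079 CPM. Single markers differed unevenly. From vehicle control to P4, the mean of COL1A2 went from 267 to 84.5 CPM, COL3A1 from 52.0 to 48.4 and COL1A1 from 29.9 to 22.6. EPCAM (177 to 188 CPM) and CDH1 (264 to 315) were higher in P4. KRT8 (398 to 248), KRT18 (255 to 204), KRT19 (74.9 to 59.1) and MUC1 (2.43 to 1.33) were lower. The part of these differences in the results below was not tested. In bulk RNA a change in the share of cells of a kind and a change in RNA per cell cannot be told apart.

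The first question was how these genes differed between P4 and vehicle control. Levels are CPM (read counts scaled to library size) after TMM normalisation over all 17 libraries. All 9 tested genes were higher in P4, each with P4 libraries that did not overlap the vehicle control libraries, whereas 26.6% of 16540 tested genes were called higher and 30.7% had higher, non-overlapping ranges. A gene was called at a Benjamini-Hochberg adjusted p under 0.05 in edgeR's quasi-likelihood test. The median log2 fold change of the 9 was 1.10, against -0.01 for all genes tested. As the genes were chosen with earlier results of these data known, these contrasts are descriptions and not a test of the set.

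**Figure D1:**
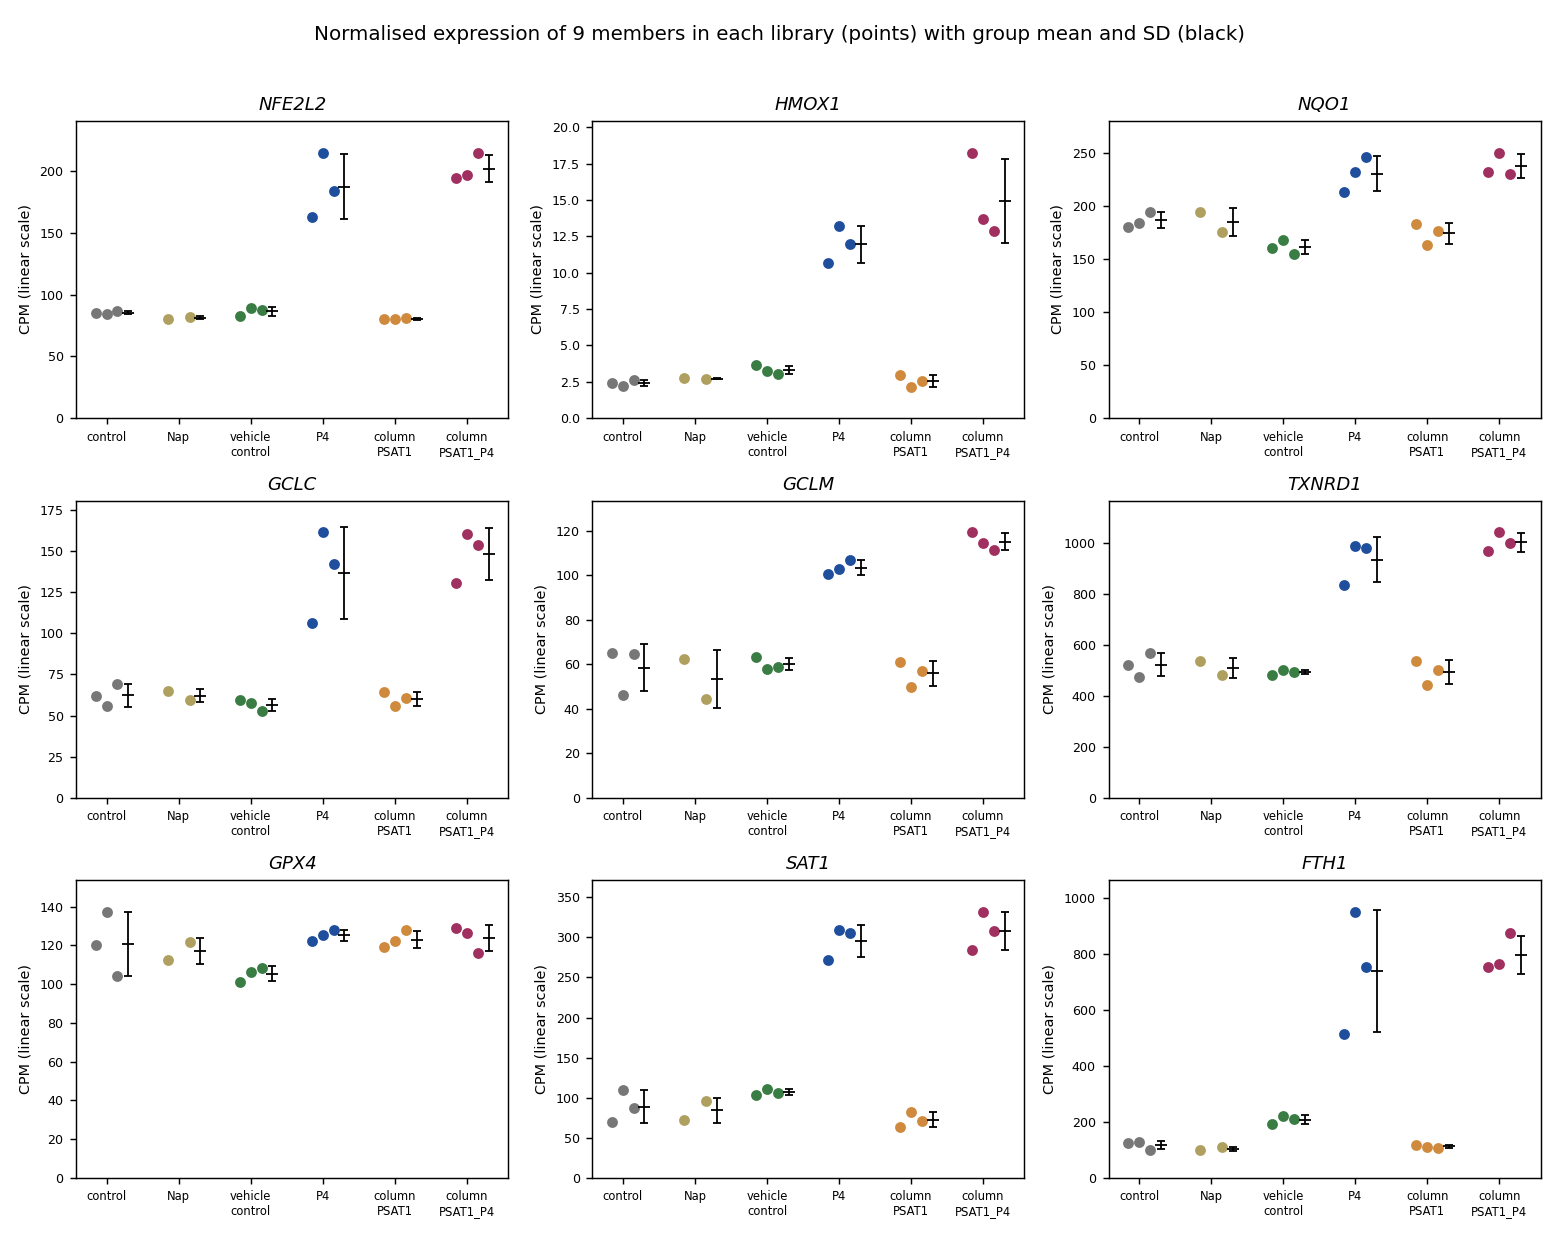
Normalised expression (CPM, linear axis from 0) of the 9 tested genes in each of the 17 libraries, by group, with points for libraries and black bars for the mean and SD. Apart from GPX4, the P4 and column PSAT1_P4 libraries sit above every library of the other 4 groups.

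NFE2L2, the regulator itself (chr2:177227595-177392697, minus strand), had 82.5, 89.2 and 87.7 CPM in the vehicle control libraries and 163, 215 and 184 CPM in the P4 libraries. The lowest P4 library was thus well above the highest vehicle control library. The fold difference was 2.14 (log2 1.10 ± 0.09 SE, n = 3 per group; edgeR adjusted p = 1.4e-06). On GENCODE 29, 20.9% of its exon bases lie in exons of other genes. Same-strand exons of AC019080.1, to which 712 reads were assigned over all libraries, hold 17.6% of its exon bases. AGPS, on the opposite strand, is among the other genes. AGPS itself had 130 ± 5.54 CPM in vehicle control and 96.6 ± 9.95 CPM in P4 (SD, n = 3).

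Among the detoxification targets, HMOX1, which breaks haem down to iron, biliverdin and carbon monoxide (chr22:35380361-35394214), had the largest log2 fold change of the 9 genes, within its SE of that of FTH1. It was read at 3.64, 3.24 and 3.05 CPM in vehicle control, from only 19 to 44 reads per library, and at 10.7, 13.2 and 12 CPM in P4. The fold was 3.64 (log2 1.86 ± 0.16 SE; edgeR adjusted p = 1.8e-06). NQO1, a quinone reductase often used as an NRF2 readout (chr16:69706996-69726951), gave 160, 168 and 155 CPM in vehicle control and 213, 232 and 246 CPM in P4. Its rise was smaller, 1.42-fold (log2 0.50 ± 0.07 SE; edgeR adjusted p = 6.3e-05).

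The 2 subunits of glutamate-cysteine ligase, which catalyses the first step of glutathione synthesis, both rose. The catalytic subunit GCLC (chr6:53497341-53616970) went from 59.5, 57.4 and 52.5 CPM in vehicle control to 106, 161 and 142 CPM in P4. That was 2.41-fold (log2 1.27 ± 0.13 SE; edgeR adjusted p = 8.9e-06), with a wide spread among the P4 libraries. The modifier subunit GCLM (chr1:93885205-93909456) had 63.1, 58.1 and 59.0 CPM in vehicle control and a narrow 100.5, 103 and 107 CPM in P4. It rose 1.71-fold (log2 0.78 ± 0.07 SE; edgeR adjusted p = 1.9e-06).

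TXNRD1, the cytosolic thioredoxin reductase (chr12:104215779-104350305), was read at 484, 501 and 496 CPM in vehicle control and at 836, 990 and 983 CPM in P4. The difference was 1.88-fold (log2 0.91 ± 0.07 SE; edgeR adjusted p = 7.1e-07). SRXN1, the sulfiredoxin that repairs overoxidised peroxiredoxins (chr20:646615-653370), could not be tested. Over all 17 libraries it had at most 6 reads in any library, with 0, 1 and 1 reads in vehicle control and 4, 6 and 4 reads in P4. No fold is given for so few reads. On GENCODE 29, 85.0% of its exon bases lie in same-strand exons of AL121758.1, to which 0 reads were assigned in every library, and how reads in the shared bases were treated is not given in the sources used here.

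GPX4, the lipid peroxide reductase (chr19:1103926-1106791), differed least. It had 101, 106 and 109 CPM in vehicle control and 122, 126 and 128 CPM in P4, which did not overlap but lay close. The fold was 1.18 (log2 0.23 ± 0.06 SE; edgeR adjusted p = 0.0080), and with upper-quartile normalisation it was no longer called (log2 0.15, adjusted p = 0.063). SAT1 (chrX:23783173-23786226) had 104, 111 and 106 CPM in vehicle control and 272, 309 and 305 CPM in P4, a 2.73-fold difference (log2 1.45 ± 0.07 SE; edgeR adjusted p = 1.4e-08).

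FTH1, the ferritin heavy chain (chr11:61959718-61967660), combined a large difference with the widest spread. It had 190, 221 and 210 CPM in vehicle control and 514, 950 and 752 CPM in P4. The fold was 3.52 (log2 1.82 ± 0.21 SE; edgeR adjusted p = 3.7e-04). Copies and neighbours make its count uncertain: the 25 annotated FTH1 pseudogenes summed to 17.4 to 24.8 CPM in vehicle control and 63.8 to 106 CPM in P4. In addition, 62.4% of its exon bases lie in exons of BEST1 on the opposite strand, which had 0.918 ± 0.214 CPM in vehicle control and 11.5 ± 0.197 CPM in P4 (SD, n = 3). The strand setting of the counting is not given in the sources used here.

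Per length of exon (RPKM, CPM per kilobase of exon), the highest level among the 9 genes in vehicle control was that of FTH1 at 102 ± 7.67 RPKM, followed by TXNRD1 at 73.6 ± 1.29 RPKM. HMOX1 was lowest at 1.38 ± 0.123 RPKM. In P4 the same genes stood at the ends, with FTH1 at 364 ± 108 RPKM and HMOX1 at 4.97 ± 0.532 RPKM (SD, n = 3).

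The vehicle itself was compared with control medium and with Nap. FTH1 was higher in vehicle control than in control medium, where its libraries had 122, 129 and 99.2 CPM, by 1.77-fold (log2 0.83 ± 0.09 SE; edgeR adjusted p = 1.6e-06). It was the only one of the 9 called higher, with 11.9% of 16673 genes called higher and 10.7% lower. NQO1 was called lower, with 180, 184 and 194 CPM in control medium (log2 -0.21 ± 0.07 SE; edgeR adjusted p = 0.033). That call was lost when any one of control replicate 3 and the 3 vehicle control libraries was left out, with adjusted p from 0.058 to 0.187 and log2 fold changes over all single omissions from -0.25 to -0.18. Against Nap alone, a comparison added after the values were seen, FTH1 (log2 1.01 ± 0.07 SE; edgeR adjusted p = 5.1e-10) and SAT1 (log2 0.35 ± 0.09 SE; edgeR adjusted p = 0.014) were called higher. There, 12.7% of 16935 genes were called higher and 11.2% lower, and NQO1 was among the latter (log2 -0.20 ± 0.06 SE; edgeR adjusted p = 0.021). The SAT1 call was lost without vehicle control replicate 2 or Nap replicate 1 (log2 0.17 to 0.55 over all single omissions), and the NQO1 call without vehicle control replicate 3 or Nap replicate 1 (log2 -0.28 to -0.13).

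None of these genes was called between Nap and control medium in the fit without a replicate block. Their log2 fold changes ran from -0.17 (FTH1) to 0.19 (HMOX1), and 0 of 17166 genes (0.00%) were called by edgeR, with 217 at an unadjusted p under 0.05 and 1 called by DESeq2. The FTH1 libraries had 98.1 and 108 CPM with Nap. With only 2 Nap libraries, the 95% interval for HMOX1 went from -0.32 to 0.70, which is the range of difference these libraries allow.

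P4 was next set against the references without ethanol in their labels. These comparisons share the P4 libraries with the first and are not independent of it. Against Nap, 8 of 9 genes were called higher (24.8% of 16987 genes were), and against control medium 8 of 9 (26.8% of 16620). The exception in both was GPX4, with log2 fold changes of 0.07 (95% interval -0.11 to 0.25; edgeR adjusted p = 0.52) and 0.03 (-0.18 to 0.24; edgeR adjusted p = 0.81). FTH1 was 7.01-fold higher in P4 than with Nap (log2 2.81 ± 0.25 SE; edgeR adjusted p = 6.6e-05) and 6.21-fold higher than in control medium (log2 2.64 ± 0.21 SE; edgeR adjusted p = 7.9e-06). HMOX1 was 4.31-fold and 4.92-fold higher (log2 2.11 ± 0.19 and 2.30 ± 0.18 SE). NQO1 was 1.23-fold higher than with Nap (log2 0.29 ± 0.09 SE; edgeR adjusted p = 0.017), a call lost without Nap replicate 2 or P4 replicate 3 and with upper-quartile normalisation (log2 0.22, adjusted p = 0.051). Against control medium it was 1.22-fold higher (log2 0.28 ± 0.09 SE; edgeR adjusted p = 0.014), a call lost without control replicate 1 or P4 replicate 3, with adjusted p from 0.070 to 0.104.

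**Figure D2:**
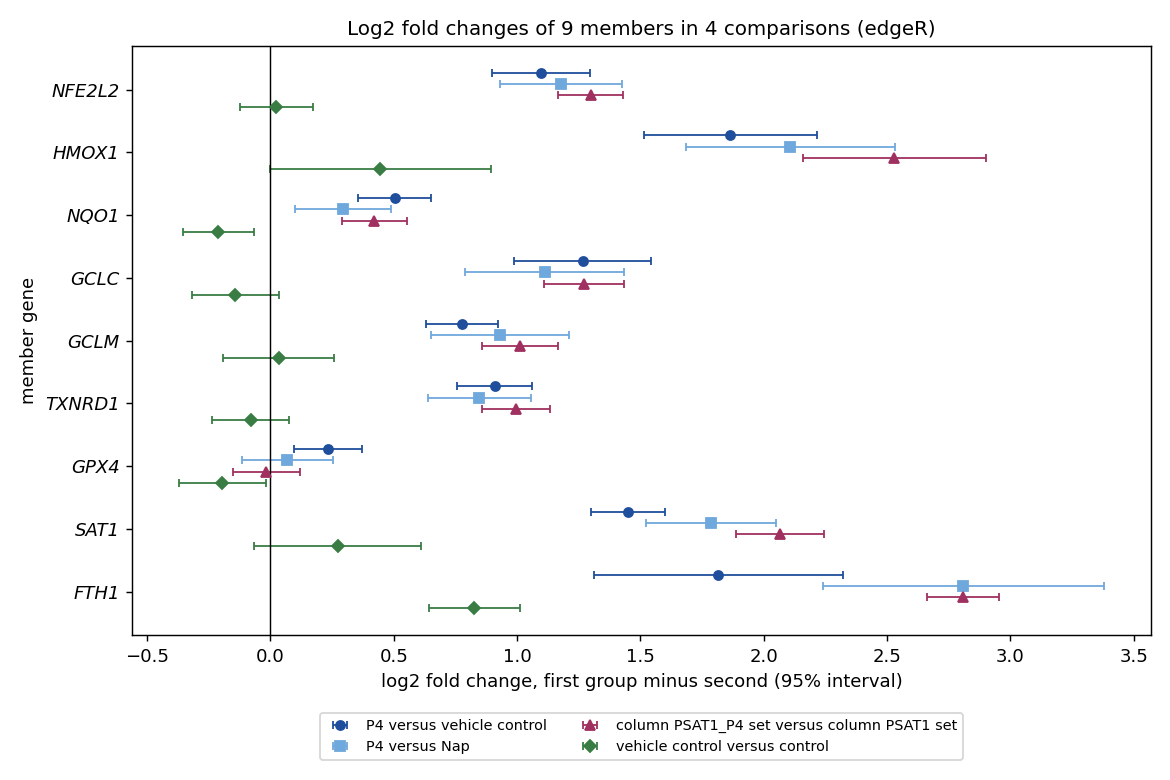
Log2 fold changes (first group minus second) of the 9 tested genes in 4 comparisons, with 95% intervals from edgeR. The interval of GPX4 lies above 0 only against vehicle control, at 0.10 to 0.37, and FTH1 alone has a vehicle difference, 0.83, well above 0.

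The PSAT1 sets were compared with each other and with the groups above. Against control medium, the column PSAT1 set had none of the 9 genes called, with log2 fold changes from -0.28 (SAT1) to 0.10 (HMOX1). In that comparison 0 of 17214 genes (0.00%) were called by edgeR, 1004 had an unadjusted p under 0.05 and DESeq2 called 0. The SAT1 libraries had 63.5, 82.5 and 70.8 CPM in this set and 69.3, 110 and 86.7 CPM in control medium, which overlap.

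The column PSAT1_P4 set was higher than the column PSAT1 set in 8 of the 9 genes, with 30.7% of 16586 genes called higher. FTH1 had 753, 764 and 875 CPM in the former and 117, 110 and 108 CPM in the latter, a 7.0-fold difference (log2 2.81 ± 0.07 SE; edgeR adjusted p = 6.6e-17). HMOX1 had 18.3, 13.7 and 12.8 CPM against 2.93, 2.13 and 2.53 CPM, 5.77-fold (log2 2.53 ± 0.18 SE; edgeR adjusted p = 3.0e-10). SAT1 was 4.19-fold and NFE2L2 2.46-fold higher (log2 2.07 ± 0.08 and 1.30 ± 0.06 SE), GCLC 2.42-fold, GCLM 2.02-fold, TXNRD1 2.00-fold and NQO1 1.34-fold. GPX4 again was not called, with 129, 126 and 116 CPM against 119, 122 and 128 CPM (log2 -0.02, 95% interval -0.15 to 0.12; edgeR adjusted p = 0.84). Against control medium the column PSAT1_P4 set was also higher in 8 of 9 genes, with 30.0% of 16209 genes called higher.

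The column PSAT1_P4 set and P4 were compared after the values had been seen. None of the 9 genes was called, and 0 of 15621 genes (0.00%) were, with 199 at an unadjusted p under 0.05 and 0 by DESeq2. The log2 fold changes of the 9 genes ran from -0.03 (GPX4) to 0.31 (HMOX1, 95% interval -0.03 to 0.65), all with edgeR adjusted p = 0.9998. The GCLM libraries did not overlap, at 119, 115 and 112 CPM against 100.5, 103 and 107 CPM, as was so in the higher direction for 3.50% of all genes.

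By group mean, the column PSAT1_P4 set and P4 held the 2 highest places for 8 of the 9 genes, and their ranges overlapped for all but GCLM. The next group down was separated from them in each of these 8 genes. For FTH1, vehicle control stood alone between these groups and control medium (207 ± 15.6 against 117 ± 15.7 CPM; SD, n = 3). So it did for HMOX1 (3.31 ± 0.297 against 2.40 ± 0.210 CPM), whose difference was not called (edgeR adjusted p = 0.14). For GPX4 all groups lay between 105 ± 3.87 CPM (vehicle control) and 125 ± 2.88 CPM (P4), and vehicle control was lowest.

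The wider pathways were counted in P4 against vehicle control, with gene lists drawn up for this work when earlier results of these data were known. Of 104 distinct listed genes other than the 10, 99 were tested, of which 39 rose and 28 fell, with a median log2 fold change of 0.08 (26.6% and 26.5% of all tested genes were called higher and lower). The direction differed from list to list. Genes named beyond the 2 most significant in each direction were chosen after their values were seen.

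**Figure D3:**
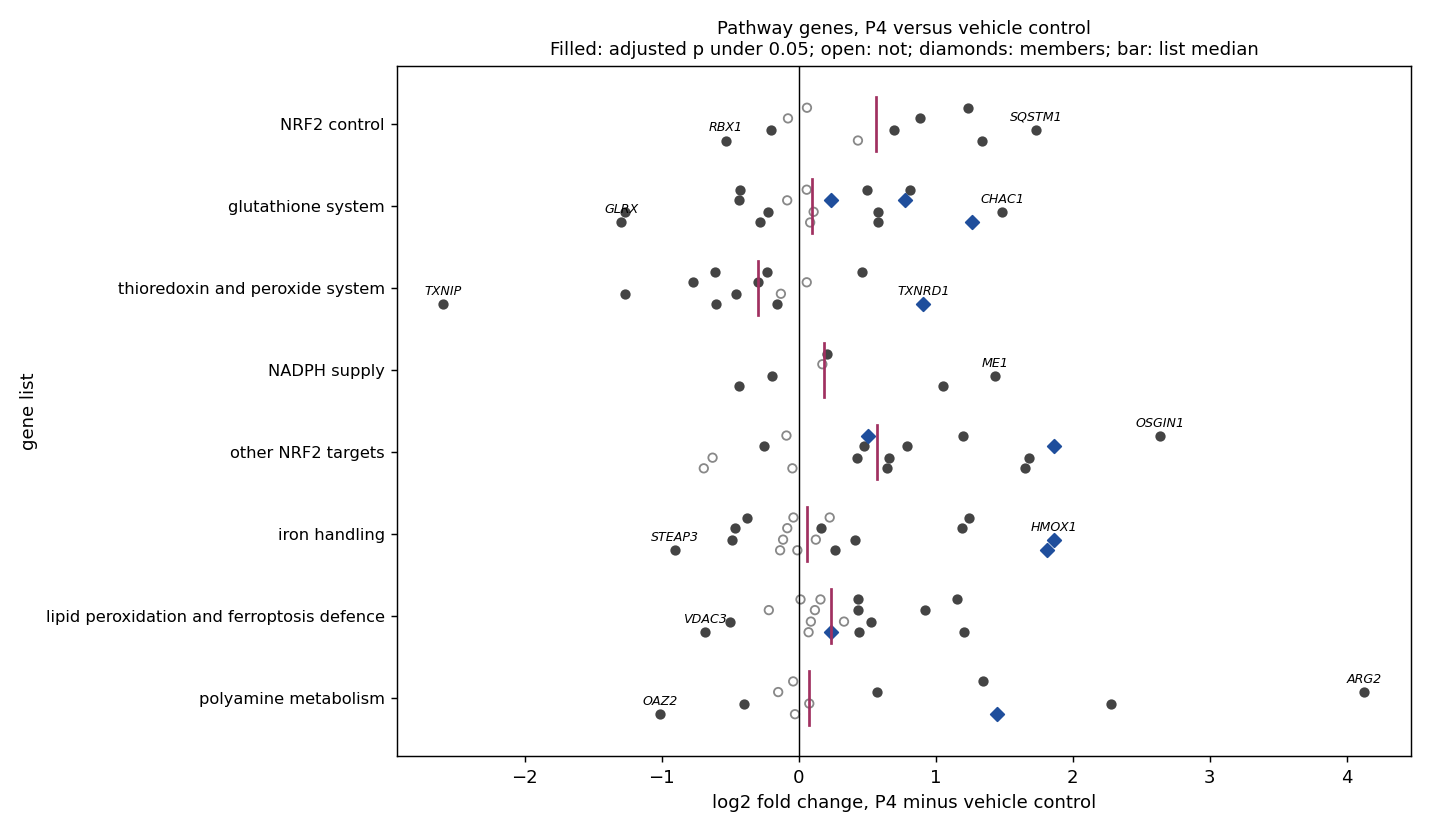
Log2 fold change (P4 minus vehicle control) of each tested gene in 8 pathway lists, with filled points for an adjusted p under 0.05, open points for others, blue diamonds for the members and bars for list medians. The thioredoxin and peroxide list has a median of -0.30 although TXNRD1 rose, and the other NRF2 targets have a median of 0.57.

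In the control of NRF2 itself, 5 of 10 genes rose and 2 fell. The small MAF partner MAFG (log2 1.24 ± 0.09 SE), the competing repressor BACH1 (log2 0.89 ± 0.07), SQSTM1, an autophagy receptor that sequesters KEAP1 (log2 1.73 ± 0.14), NFE2L1 (log2 0.70 ± 0.06) and MAFF (log2 1.34 ± 0.30) rose. RBX1, a subunit of the KEAP1 ubiquitin ligase, fell (log2 -0.53 ± 0.13; edgeR adjusted p = 0.0036). KEAP1 was called lower (53.2 ± 0.462 CPM in vehicle control and 46.6 ± 0.869 CPM in P4, SD, n = 3; log2 -0.20 ± 0.07; edgeR adjusted p = 0.031). That call was lost without each vehicle control library and without P4 replicates 2 and 3, where adjusted p was 0.064 to 0.111, as well as in DESeq2, with no filter on low counts and with all 6 groups in the fit. In vehicle control against control medium, 2 of these 10 genes were called higher and 1 lower (11.9% and 10.7% of all tested genes). MAFF was among the former (log2 3.48 ± 0.39 SE; edgeR adjusted p = 6.2e-06), from only 0.338 ± 0.384 CPM in control medium (SD, n = 3).

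Of 16 tested targets in the list of other NRF2 targets, which holds HMOX1 and NQO1, 11 rose and 1 fell. The lysosomal haem transporter SLC48A1 (log2 1.65 ± 0.07) and the drug efflux pump ABCC3 (log2 1.20 ± 0.09) rose with the smallest p. OSGIN1, an oxidative stress response gene, went from 3.36 ± 1.26 to 22.9 ± 6.50 CPM (SD, n = 3; log2 2.63 ± 0.25; edgeR adjusted p = 6.7e-06). AKR1C1, a ketosteroid reductase that inactivates progesterone, rose from 3.18 ± 0.288 to 10.1 ± 0.0288 CPM, a value that is uncertain because the AKR1C genes are near-identical copies that can share reads. The carbonyl reductase CBR1 was the gene that fell (log2 -0.25 ± 0.08; edgeR adjusted p = 0.020), and this call was lost without vehicle control replicate 2 or 3 or P4 replicate 2, as well as in DESeq2 and with no filter on low counts.

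In the glutathione system, GPX4, GCLC and GCLM were among 8 genes that rose, and 6 of 18 fell. The other risers were CHAC1, which degrades glutathione (log2 1.49 ± 0.15), SLC7A11 and SLC3A2, the subunits of the cystine transporter (log2 0.81 ± 0.08 and 0.58 ± 0.06), the synthetase GSS (log2 0.50 ± 0.08) and the reductase GSR (log2 0.58 ± 0.07). SLC7A11 went from 382 ± 14.4 to 677 ± 79.1 CPM (SD, n = 3). MGST2, a microsomal transferase (log2 -1.27 ± 0.13), and GLRX, a glutaredoxin (log2 -1.30 ± 0.28), fell most among the list. GLRX rests on few reads, 13, 54 and 62 in the vehicle control libraries and 23, 15 and 20 in the P4 libraries. GSTP1, GSTO1, MGST1 and MGST3 also fell, by log2 values of -0.22 to -0.43. In vehicle control against control medium, 7 of the 18 were already called lower and 1 higher (10.7% and 11.9% of all tested genes). GSTP1, GSTO1 and MGST1 were among the 7 (log2 -0.26 ± 0.08, -0.31 ± 0.10 and -0.26 ± 0.07 SE).

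The thioredoxin and peroxide list moved the other way, with 9 genes lower and 2 higher (TXNRD1 and PRDX5) of 13. DESeq2 called 7 lower and 2 higher. TXNIP, which binds and inhibits thioredoxin, fell from 21.4 ± 2.13 to 3.53 ± 0.801 CPM (log2 -2.59 ± 0.16; edgeR adjusted p = 1.2e-07). The peroxiredoxins PRDX1 (log2 -1.27 ± 0.15), PRDX2 (log2 -0.77 ± 0.08) and PRDX4 (log2 -0.46 ± 0.09) and the superoxide dismutase SOD1 (log2 -0.61 ± 0.08) fell. PRDX6 was also called lower (log2 -0.16 ± 0.06, edgeR adjusted p = 0.043). PRDX5 rose (log2 0.47 ± 0.07), and thioredoxin itself, TXN, had a log2 difference of 0.06 ± 0.08 (edgeR adjusted p = 0.58). In vehicle control against control medium, 7 of the 13 were already lower and 0 higher, TXNIP by log2 -1.39 ± 0.17 SE (edgeR adjusted p = 7.8e-04).

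For NADPH supply, 3 of 6 genes rose and 2 fell. ME1 (malic enzyme, log2 1.43 ± 0.08) and IDH1 (isocitrate dehydrogenase, log2 1.05 ± 0.06) rose. TKT (transketolase) was also called higher (log2 0.20 ± 0.06, edgeR adjusted p = 0.015). Its means were 222 ± 13.1 CPM in control medium, 191 ± 3.30 in vehicle control and 222 ± 11.9 CPM in P4 (SD, n = 3). Between the column PSAT1_P4 and column PSAT1 sets TKT was not called (log2 -0.06 ± 0.07 SE, edgeR adjusted p = 0.50). PGD, the phosphogluconate dehydrogenase, was called lower (log2 -0.20 ± 0.06; edgeR adjusted p = 0.017), a call that was lost without vehicle control replicate 2 or 3 or P4 replicate 3 and with no filter on low counts. In vehicle control against control medium, 3 of the 6 were called lower and 0 higher (10.7% and 11.9% of all tested genes). TKT was among the 3 (log2 -0.22 ± 0.07 SE, edgeR adjusted p = 0.030).

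In iron handling, 7 of 18 genes rose and 4 fell, while DESeq2 called 6 higher and 4 lower. Besides HMOX1 and FTH1, the light chain FTL (log2 1.24 ± 0.11), the zinc and iron importer SLC39A14 (log2 1.19 ± 0.06), CISD1 (log2 0.41 ± 0.09), the ferritinophagy receptor NCOA4 (log2 0.26 ± 0.06) and SLC11A2 (log2 0.16 ± 0.06) rose. FTL went from 597 ± 12.9 to 1426 ± 270.0 CPM (SD, n = 3; edgeR adjusted p = 3.6e-06). The ferrireductase STEAP3 (log2 -0.90 ± 0.11), HMOX2 (log2 -0.48 ± 0.10), the iron exporter SLC40A1 (log2 -0.47 ± 0.14) and BLVRA (log2 -0.38 ± 0.12) fell. TFRC, the transferrin receptor, differed by log2 -0.14 ± 0.06 (edgeR adjusted p = 0.060).

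Among lipid peroxidation and ferroptosis defence genes, 8 of 17 rose, GPX4 included, and 2 fell. DESeq2 called 7 higher and 2 lower. The autophagosome protein MAP1LC3B rose (log2 0.92 ± 0.11; edgeR adjusted p = 1.8e-05), while the mitochondrial channel VDAC3 (log2 -0.68 ± 0.08) and LPCAT3, which places polyunsaturated fatty acids in phospholipids (log2 -0.50 ± 0.09), fell. ACSL4, which activates those fatty acids to their acyl-CoA, had a log2 difference of 0.09 ± 0.06 (edgeR adjusted p = 0.25), and AIFM2, the ferroptosis suppressor FSP1, of 0.12 ± 0.09 (edgeR adjusted p = 0.30). In vehicle control against control medium, MAP1LC3B was the 1 gene of 16 tested called higher (log2 0.96 ± 0.10 SE; edgeR adjusted p = 7.0e-07), and 3 were lower.

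The polyamine list held the largest fold change of all lists. ARG2, a mitochondrial arginase, rose from 2.17 ± 0.208 to 38.1 ± 4.43 CPM (SD, n = 3), 17.5-fold (log2 4.13 ± 0.15; edgeR adjusted p = 1.8e-09). SMOX, the spermine oxidase that releases hydrogen peroxide, rose 4.86-fold, from 2.46 ± 0.180 to 12.3 ± 1.10 CPM (log2 2.28 ± 0.16; edgeR adjusted p = 4.1e-07). With SAT1, SAT2 (log2 1.35 ± 0.13) and AZIN1 (log2 0.57 ± 0.07), that made 5 of 11 genes higher. OAZ2 (log2 -1.01 ± 0.09) and the spermidine synthase SRM (log2 -0.40 ± 0.13) were called lower, the latter lost without vehicle control replicate 3 or P4 replicate 3. ODC1, the first enzyme of polyamine synthesis, had a log2 difference of -0.03 ± 0.06 (edgeR adjusted p = 0.74). In vehicle control against control medium, 4 of 12 tested genes were called lower and 0 higher (10.7% and 11.9% of all tested genes). ODC1 was among the 4 (log2 -0.35 ± 0.07 SE, edgeR adjusted p = 0.0012).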

How the data were processed

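Stranded total RNA libraries of Ishikawa cells were sequenced as single-end 75-base reads. The authors trimmed reads with cutadapt, aligned them with Subread and deposited raw gene counts from featureCounts on GENCODE 31; versions and the strand setting are not given in the sources used here. Every column was assigned to a library by its name, leaving 0 columns unused. Names and coordinates came from GENCODE 29 (GRCh38): 58587 of 60662 identifiers matched without version, 3 of the 10 members with the same version, and 2054 more from a names table.

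Genes were tested with edgeR 4.0.16 in R 4.3.3 (TMM, filterByExpr with minimum count 10, robust quasi-likelihood fits, Benjamini-Hochberg over all genes tested, threshold 0.05), with only the groups compared in a fit. A log2 fold change is given with its SE, and 95% intervals use the t distribution. Alternatives were DESeq2 1.42.0, other normalizations and filters, all groups in a fit, replicate blocks and leaving out each library. The method was tested on simulated data. The members and lists were chosen with earlier results of these data known. The genes named are the members, the 2 most significant genes of each list, higher and lower, in P4 against vehicle control, and for HMOX1 and NQO1 the 3 protein-coding genes with the closest pattern; others were chosen after their values were seen. A few genes that this rule names are not reported here. Library totals of 4999521 to 19704493 reads left HMOX1 with 19 to 44 reads per vehicle control library and SRXN1 with too few to test.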

Additional observations from a re-analysis of the deposited data

How the results depend on the processing

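In P4 against vehicle control, 9 genes were called higher in every alternative that left out 1 library (7083 to 9953 of all genes called) and when both libraries numbered 1 were left out, chosen after seeing the data; GPX4 alone lost its call, with upper-quartile normalization. All genes called by DESeq2 were 7474 there. GPX4 changed sign where it was not called: against Nap with upper-quartile normalization (-0.0084), against control medium with the same (-0.034) and in single omissions (-0.060 to 0.13), for the column PSAT1_P4 set against control medium with that normalization (-0.074), no filter on low counts (-3.5e-05), at least 10 counts in every library (-0.0060) and single omissions (-0.069 to 0.12), and for the column sets with all 6 groups in the fit (0.0099) and single omissions (-0.041 to 0.037). Members called higher in P4 were 7 to 8 against Nap (5502 to 9719 of all genes) and 7 to 8 against control medium in single omissions.

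In vehicle control against control medium, no filter gave 2 members higher and 2 lower, with NFE2L2 at -0.00012, and single omissions gave 1 to 2 higher, 0 to 2 lower and 1908 to 3995 of all genes, with GCLM from -0.12 to 0.12 and NFE2L2 from -0.00089 to 0.055. Against Nap, members lower were 0 with DESeq2 (2145 of all genes) and 1 higher and 0 lower with all 6 groups in the fit (2310 of all genes). Single omissions gave 1 to 2 higher, 0 to 1 lower, 2355 to 3803 of all genes, GCLM from -0.085 to 0.42 and TXNRD1 from -0.14 to 0.026. For Nap against control medium the count of all genes called was 1 with DESeq2, 3 with no filter, 1 with all 6 groups and 0 to 5 in single omissions. For the column PSAT1 set it was 14 with no filter and 0 to 5 in single omissions. For the column PSAT1_P4 set against P4 it was 1 with no filter and 0 to 1 in single omissions, where FTH1 ran from -0.099 to 0.32, GCLC from -0.038 to 0.24, GPX4 from -0.059 to 0.019, NQO1 from -0.014 to 0.081 and SAT1 from -0.00057 to 0.10. The causes were not tested.

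The labels do not say that a replicate number marks a shared batch, and in no comparison with 3 numbered pairs did every pair of same-numbered libraries deviate together with a correlation over 0.1, so the numbers were not taken as a pairing. Over 15655 genes the correlations were 0.042, 0.053 and -0.041 in P4 against vehicle control, but 0.397, 0.118 and -0.049 for the column PSAT1_P4 set against P4, 0.075, 0.217 and -0.109 for the column PSAT1 set against control medium, and 0.308 and 0.350 for Nap against control medium, which has only 2 pairs, each library there correlating best with its own number. With the replicate block, 2 members were higher in vehicle control than in control medium, 0 lower than with Nap, and 1 (FTH1) was lower with Nap than in control medium, where 42 of all genes were called against 0 without the block. NQO1 in P4 against Nap was no longer called (log2 0.25, adjusted p = 0.139). The block gave 29 of all genes for the column PSAT1 set and 1 for the column PSAT1_P4 set against P4. HMOX1 rests on few reads, and SRXN1 could not be tested at this depth.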

Other observations

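The protein-coding genes whose pattern was most like that of HMOX1 over the 17 libraries, by Pearson's r of log2(CPM + 1) among 12554 genes, were ROR1 (r = 0.991), PXK (r = 0.990) and TMEM38B (r = 0.990). ROR1 had group means of 8.69 CPM in vehicle control and 26.0 CPM in P4. For NQO1 they included RAB11FIP1 (r = 0.984) and GHITM (r = 0.982), and GHITM had 125 CPM in vehicle control and 250.4 CPM in P4. The points share library, depth and treatment group, and the values are descriptions.

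PGR, the progesterone receptor, chosen after its values were seen, had group means of 111 CPM in control medium, 57.4 CPM in vehicle control, 21.7 CPM in P4 and 19.5 CPM in the column PSAT1_P4 set. BEST1, which lies opposite FTH1, had 11.1 ± 0.788 CPM in the column PSAT1_P4 set and 0.676 ± 0.127 CPM in the column PSAT1 set (SD, n = 3). The 25 FTH1 pseudogenes summed to 81.4 to 104 CPM in the column PSAT1_P4 set.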
